A study of Drosophila melanogaster with 6 samples.

Results

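The 8 transfer RNAs (tRNAs) that the fruit fly (Drosophila melanogaster) encodes on the minus strand of its mitochondrial genome were followed in midguts of flies with reduced function of RNA polymerase III (Pol III). They were picked, with earlier results of these data known, by a rule that uses the annotation and no measured value, as the listed transcripts whose gene name starts with mt:tRNA and whose gene lies on the minus strand, and they are 8 of the 22 mitochondrial tRNAs in a table of short transcripts, of which 411 were tested and 120 had too few counts. There were 6 libraries. The 3 mutant libraries came from female flies carrying dC53EY22749, a P-element insertion in 1 copy of Polr3D (formerly dC53), which encodes a subunit found only in Pol III. The 3 wild-type libraries came from females of the White Dahomey stock, the outbred background into which, per the study's methods, the insertion had been backcrossed. Flies were 1 week old by the study's text, which also states that flies with 2 copies of the insertion do not survive. The study's general fly RNA extraction, described beside its qPCR, used several dissected midguts per extraction, and its sequencing methods name no number of their own. In both genotypes RNA was size-selected for short molecules and demethylated, so all groups share these steps. No protein-coding marker of the midgut was analysed here, so the tissue and the genotype of each library rest on its label.

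Mitochondrial tRNAs are made inside the organelle by its own RNA polymerase, not by Pol III, from long transcripts of both strands of the circular genome. The tRNAs lie between the protein-coding and ribosomal RNA genes, and their release by cuts at both ends also frees the RNAs beside them. They decode the few proteins made in mitochondria, all of them parts of the respiratory chain and the ATP synthase. Here the 8 minus-strand tRNAs serve as short RNAs that were sequenced in the same libraries as the Pol III products but are not made by that enzyme.

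The annotation (assembly BDGP6, mitochondrial genome) places each member as a gene of 1 exon, 62 to 72 bases long with a median of 66, and the 14 plus-strand tRNAs span 63 to 71 bases with the same median. Of 13 protein-coding genes, 4 lie on the minus strand, together with both ribosomal RNA genes. mt:tRNA:Gln-TTG (FBtr0100855; 97 to 165), which carries glutamine, stands between mt:tRNA:Ile-GAT and mt:tRNA:Met-CAT of the other strand. mt:tRNA:Cys-GCA (FBtr0100859; 1322 to 1383) and mt:tRNA:Tyr-GTA (FBtr0100860; 1403 to 1468), the tRNAs for cysteine and tyrosine, form a pair with 19 bases between them, just before the cytochrome oxidase gene mt:CoI. The Cys gene shares 8 bases with mt:tRNA:Trp-TCA on the plus strand, and none of the other 7 members overlaps a gene of the opposite strand. mt:tRNA:Phe-GAA (FBtr0100876; 6344 to 6408), for phenylalanine, abuts mt:ND5, and mt:tRNA:His-GTG (FBtr0100878; 8141 to 8206), for histidine, lies between mt:ND5 and mt:ND4, which encode subunits of respiratory complex I. mt:tRNA:Pro-TGG (FBtr0100882; 9903 to 9968), for proline, abuts mt:tRNA:Thr-TGT of the plus strand with 0 bases between them. mt:tRNA:Leu-TAG (FBtr0100887; 12670 to 12734), the second of 2 mitochondrial leucine tRNAs, and mt:tRNA:Val-TAC (FBtr0100889; 14059 to 14130), for valine, flank the large ribosomal RNA gene without a gap, and Val also abuts the small one. No source used here says that the libraries or the counting kept the strand, so reads from a member and from RNA of the opposite strand at the same place cannot be told apart.

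Counts over all listed transcripts totalled 13465392 to 16891428 per library, and the range overlapped between genotypes. Each member was well covered, with 4647 to 1265725 estimated counts in a library. The 95% Wilson interval of a member's share of a library had a half-width of at most 2.87% of the value. It covers counting error only and leaves out the spread between libraries. Reads copied by PCR do not count separate molecules, so the interval can be too narrow even for counting error. No pair of same-genotype libraries was alike to within sampling noise, with a chi-square statistic of 212 to 1409 for each degree of freedom. The labels do not say that the libraries came from separate groups of flies, and p-values then measure only the spread between these libraries. In such bulk samples, fewer mitochondria, fewer cells rich in them and less tRNA in each of them cannot be told apart.

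The members differed far more from each other than between genotypes. Levels are given as counts per 1000000 after TMM scaling (CPM), and members are ranked by CPM per kilobase of transcript. mt:tRNA:Val-TAC was the most abundant of all 22 mitochondrial tRNAs, with 54143, 66804 and 85196 CPM in mutant replicates 1, 2 and 3, and 58299, 62519 and 49825 CPM in wild-type replicates 1, 2 and 3. It alone took 5.25, 6.08 and 8.09% of all counts in the mutant libraries and 6.59, 6.46 and 5.09% in the wild-type libraries, and it made up 70.0 to 72.5% of the counts of the 8 members in every library. mt:tRNA:Gln-TTG had the lowest mean of the 22, with 336, 472 and 767 CPM in mutant midguts, against 490, 502 and 323 CPM in wild-type midguts. It was not lowest in every library, with 1.36 times the counts of mt:tRNA:Met-CAT in mutant replicate 3 and 1.07 times in wild-type replicate 2. Per kilobase the mean over all libraries spanned 125-fold among the minus-strand tRNAs and 54.2-fold among the plus-strand tRNAs, with medians of 55193 and 69404 CPM per kilobase. These are levels of sequenced RNA, and how fully each tRNA was recovered was not measured.

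The order on the per-kilobase scale was Val, Pro, Phe, Cys, His, Leu, Tyr and Gln. Val exceeded Pro 6.37-fold, and the libraries of these 2 tRNAs did not overlap. Pro exceeded Phe 1.53-fold on average but in only 4 of 6 libraries, and they overlapped within both genotypes. Phe exceeded Cys 1.49-fold in all 6 libraries. Cys exceeded His 1.203-fold and in 5 of 6 libraries, with overlap in the mutant. His exceeded Leu 2.03-fold in all libraries. Leu and Tyr were not separated, with a ratio of 1.10 and Leu higher in 4 of 6 libraries, and Tyr exceeded Gln 3.22-fold in all 6. The 2 tRNAs that flank the large ribosomal RNA gene thus stood far apart, with Val 34.6, 43.3 and 46.8 times Leu by estimated counts in the mutant libraries and 34.8, 40.1 and 34.1 times in the wild-type libraries.

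**Figure D1:**
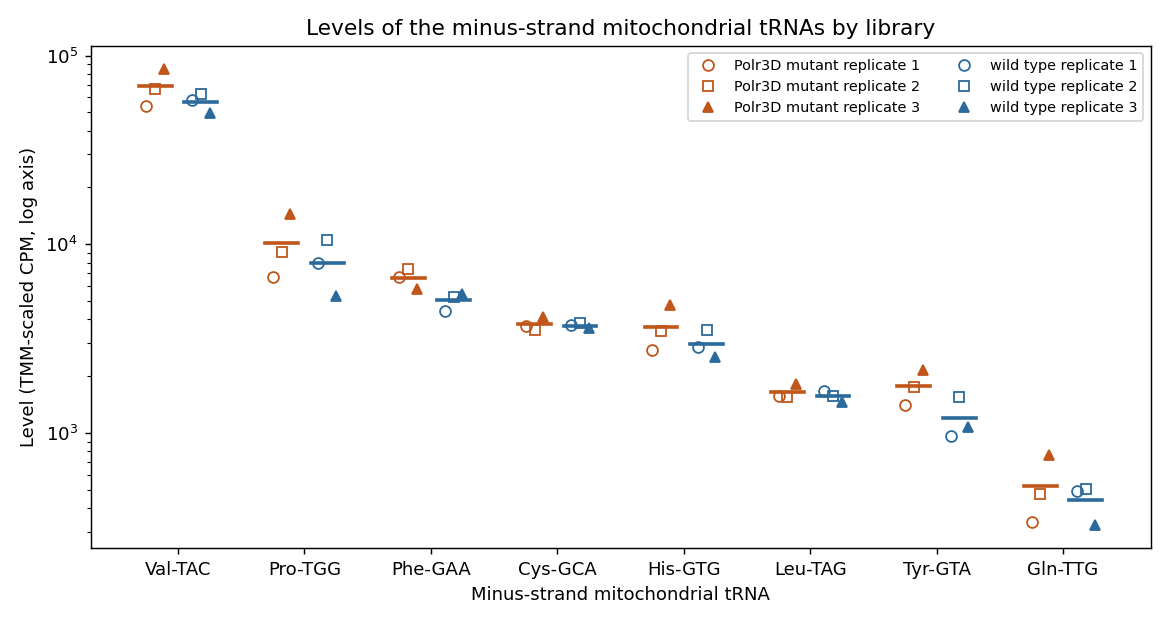
Levels of the 8 minus-strand mitochondrial tRNAs in each library, as TMM-scaled CPM on a log axis, ordered by mean CPM per kilobase; symbols mark replicates and bars the mean of the 3 libraries of a genotype. Val-TAC lay between 49825 and 85196 CPM and Gln-TTG between 323 and 767 CPM, and the genotypes overlapped in every member but Phe-GAA.

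The genotypes were compared to find short RNAs whose level differs when Pol III function is reduced. None of the 8 members passed the threshold of a Benjamini-Hochberg adjusted p below 0.10 in edgeR's quasi-likelihood test, where 5 of 411 transcripts tested passed (1.22%). At an unadjusted p below 0.05, 2 members were higher (Tyr and Phe) and 0 lower, beside 9.49% of all transcripts higher and 5.35% lower. DESeq2 is the tool the study itself used, at the same threshold of 0.10. Its Wald test called 1 member higher here (Phe), where it called 6.25% of transcripts higher. The other tool run, limma-voom, called 0 members and 0 transcripts. All 8 log2 fold changes were above 0 under TMM scaling, against 44.5% of all transcripts tested. Their median was 0.29, beside -0.05 over all transcripts. With library totals alone or with scaling on the plus-strand mitochondrial tRNAs, 6 of the 8 were above 0, and Cys and Leu were below it. These scalings moved the median of all transcripts by -0.17 and -0.14, and upper-quartile factors moved it by 0.12.

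mt:tRNA:Phe-GAA was the only member whose genotypes did not overlap in TMM-scaled CPM. It had 6678, 7391 and 5828 CPM in the mutant, against 4422, 5250 and 5467 CPM in the wild type. All mutant libraries were higher on this scale, as was the case for 8.03% of all transcripts tested. As a share of all counts the genotypes overlapped, with 0.647, 0.673 and 0.553% in mutant midguts, against 0.4998, 0.543 and 0.558% in wild-type midguts. The fitted log2 difference was 0.39 ± 0.16 (SE; edgeR adjusted p = 0.310), and over all alternatives tried it stayed above 0. DESeq2 gave 0.43 ± 0.15 (SE) and an adjusted p of 0.0893, which passed, and over all alternatives the adjusted p of Phe lay between 0.0893 and 0.521. On the scale of the plus-strand mitochondrial tRNAs it was 0.26 (SE 0.20, edgeR adjusted p = 0.482). As a share of all mitochondrial tRNA counts, Phe took 3.63, 3.62 and 2.30% in mutant midguts, against 2.33, 2.63 and 3.29% in wild-type midguts, and here too the genotypes overlapped.

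mt:tRNA:Tyr-GTA had the largest log2 fold change of the 8, at 0.57 ± 0.22 (SE; edgeR adjusted p = 0.310). It had 1404, 1749 and 2160 CPM in the mutant, against 962, 1548 and 1069 CPM in the wild type. Wild-type replicate 2 lay inside the mutant range, and the other wild-type libraries lay below it. The log2 fold change stayed between 0.41 and 0.80 when each library was left out in turn. Its neighbour mt:tRNA:Cys-GCA, which precedes it on the map, had 3682, 3496 and 4114 CPM in mutant midguts, against 3725, 3827 and 3578 CPM in wild-type midguts. The Cys values were within 1.18-fold over all 6 libraries, the narrowest range of the 8 members, with a fitted log2 difference of 0.02 ± 0.14 (SE; edgeR adjusted p = 0.939) that turned to -0.04 without mutant replicate 3 and to -0.01 without wild-type replicate 3. The ratio of Cys to Tyr counts was 2.62, 1.999 and 1.90 in mutant midguts, against 3.87, 2.47 and 3.35 in wild-type midguts, a 2.03-fold range over the 6 libraries.

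In Val, His, Pro and Gln mutant replicate 3 was highest and the genotypes overlapped, as was also the case for Tyr, Cys and Leu. mt:tRNA:His-GTG had 2755, 3455 and 4755 CPM in mutant midguts, against 2847, 3511 and 2521 CPM in wild-type midguts, with a fitted log2 difference of 0.30 ± 0.22 (SE; edgeR adjusted p = 0.533). For mt:tRNA:Val-TAC the log2 fold change was 0.27 (SE 0.20, edgeR adjusted p = 0.533). mt:tRNA:Pro-TGG had the widest range over the 6 libraries, with 6736, 9120 and 14541 CPM in mutant midguts, against 8001, 10514 and 5347 CPM in wild-type midguts. The highest and lowest Pro libraries differed 2.72-fold, and the log2 fold change was 0.35 (SE 0.32, edgeR adjusted p = 0.599). For mt:tRNA:Gln-TTG it was 0.26 (SE 0.29, edgeR adjusted p = 0.641), and the 6 libraries spanned 2.37-fold. In Val, His, Pro and Gln mutant replicate 1 lay below wild-type replicates 1 and 2, and wild-type replicate 3 was the lowest of all. This order was not particular to them, because the plus-strand mt:tRNA:Trp-TCA, mt:tRNA:Gly-TCC and mt:tRNA:Ser-GCT had it too.

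mt:tRNA:Leu-TAG was nearly level, with 1563, 1545 and 1821 CPM in mutant midguts, against 1678, 1561 and 1463 CPM in wild-type midguts. The spread over all 6 libraries was 1.25-fold and the log2 fold change 0.07 (SE 0.14, edgeR adjusted p = 0.807). Within genotypes the coefficient of variation of Leu was 9.42% in mutant midguts, against 6.87% in wild-type midguts, and that of Cys 8.43% and 3.37%. For Pro these values were 39.5% and 32.5%, and for Gln 42.0% and 22.8%.

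Several of these values depended on single libraries. Mutant replicate 3 held the highest level in 7 of the 8 members, beside 10 of 14 plus-strand mitochondrial tRNAs, 9 of 32 nuclear tRNAs for the same amino acids, and 18.7% of all transcripts tested. Without it the median log2 fold change of the members was 0.03, beside 0.15 for the plus-strand mitochondrial tRNAs. Of the members, 4 of 8 were above 0. Gln then had -0.12, Pro -0.01, Leu -0.0042 and Cys -0.04, while His had 0.07, Val 0.09, Tyr 0.41 and Phe 0.49. No member passed in that fit, in which the lowest edgeR adjusted p among them was 0.120 (Phe) and 11.3% of transcripts passed. The total of mutant replicate 3, 15643766 counts, lay within the range of the other libraries. Wild-type replicate 3 was lowest in 5 of 8 members, beside 44 of 411 transcripts tested. Without it the median log2 fold change of the members was 0.16, and 7 of 8 were above 0. With each remaining library left out in turn, the median was 0.30 to 0.44.

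**Figure D2:**
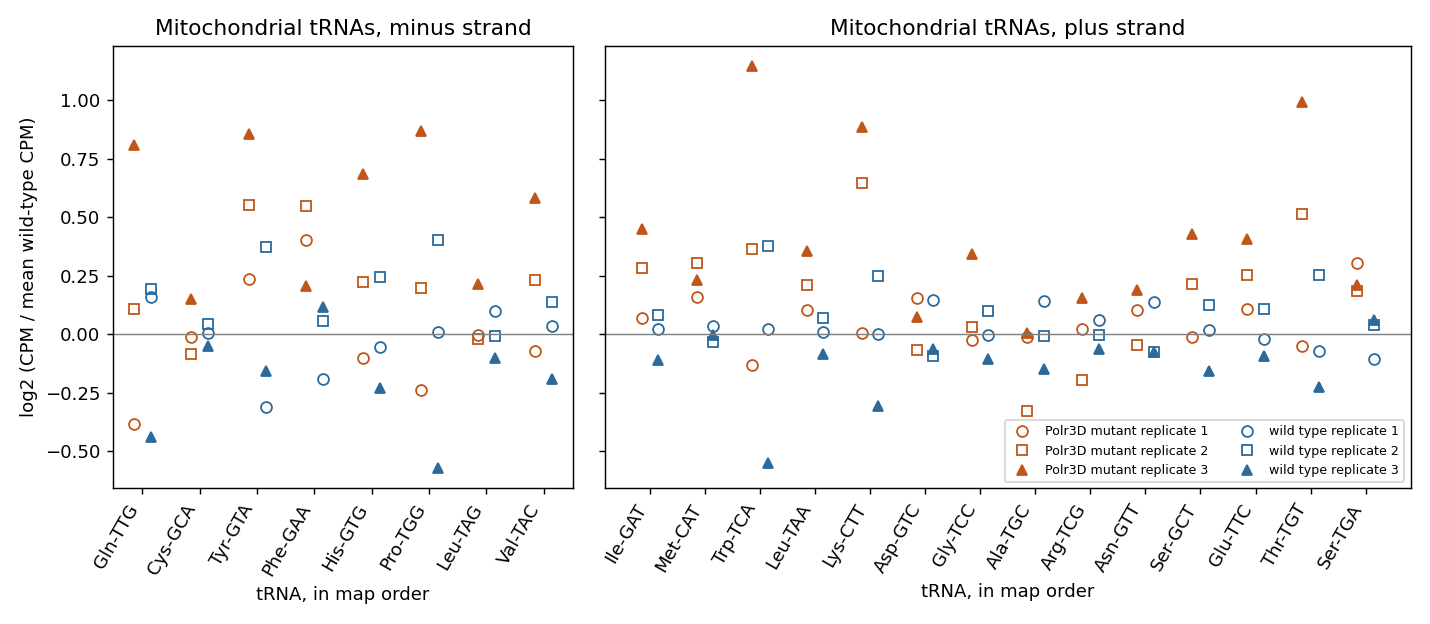
Level of each mitochondrial tRNA in each library relative to the mean wild-type level, as log2 of the CPM ratio, for the 8 minus-strand genes on the left and the 14 plus-strand genes on the right. Mutant replicate 3 (filled triangles of the mutant) was highest in 7 of 8 minus-strand and 10 of 14 plus-strand tRNAs, and wild-type replicate 3 was lowest in 5 and 8 of them.

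Summed over the 8 members, minus-strand tRNAs took 7.50, 8.56 and 11.3% of all counts in the mutant libraries, and 9.09, 9.23 and 7.10% in the wild-type libraries. The means were 9.12% ± 1.97 in mutant midguts, against 8.47% ± 1.19 in wild-type midguts (SD, n = 3 each), which overlapped. Their difference of 0.651 percentage points was smaller than the spread within the mutant. It was -0.445 without mutant replicate 3 and -0.0331 without wild-type replicate 3. With all libraries, Val alone gave 0.428 points of it and the members without Val 0.224 points, so the sum mostly reported Val. The genotypes overlapped in both parts. The sign of the summed difference also depended on the denominator. Relative to all counts other than the 5.8S ribosomal RNA the difference was -0.727 points, and relative to all tRNA counts it was -2.002 points, while relative to all mitochondrial tRNA counts it was 2.07 points. The 5.8S rRNAs took 37.0% ± 1.59 of counts in mutant midguts, against 44.4% ± 0.623 in wild-type midguts (SD, n = 3 each), with all mutant libraries lower.

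The plus-strand tRNAs, made from the other strand of the same genome, took 10.3, 10.02 and 12.7% of all counts in mutant midguts, against 12.3, 11.4 and 9.84% in wild-type midguts. The ratio of minus-strand to plus-strand counts was 0.726, 0.854 and 0.891 in mutant midguts, against 0.738, 0.807 and 0.722 in wild-type midguts. The genotypes overlapped, and Val made up most of the minus-strand counts. None of the 14 plus-strand tRNAs passed in edgeR's test. Of them, 1 was higher at an unadjusted p below 0.05 (mt:tRNA:Lys-CTT), beside 9.49% of all transcripts tested. DESeq2 called 0 of the 14, with 4 at an unadjusted p below 0.05 and higher, beside 11.5% of all transcripts, and limma-voom called 0, with 0 at that level. Of the 14, 13 had a log2 fold change above 0, beside 44.5% of all transcripts tested. The median of the 14 was 0.23, beside 0.29 for the minus strand. With library totals alone these medians were 0.06 and 0.12, and with upper-quartile factors 0.35 and 0.41. Among the 14, mt:tRNA:Trp-TCA, for tryptophan, had the largest log2 fold change at 0.56 (SE 0.33, edgeR adjusted p = 0.426). The smallest was that of mt:tRNA:Ala-TGC, for alanine, at -0.10 (SE 0.16, edgeR adjusted p = 0.736). The genotypes did not overlap in 4 of the 14 (Met-CAT, Leu-TAA, Glu-TTC and Ser-TGA), all higher in the mutant, beside 8.03% of all transcripts tested.

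**Figure D3:**
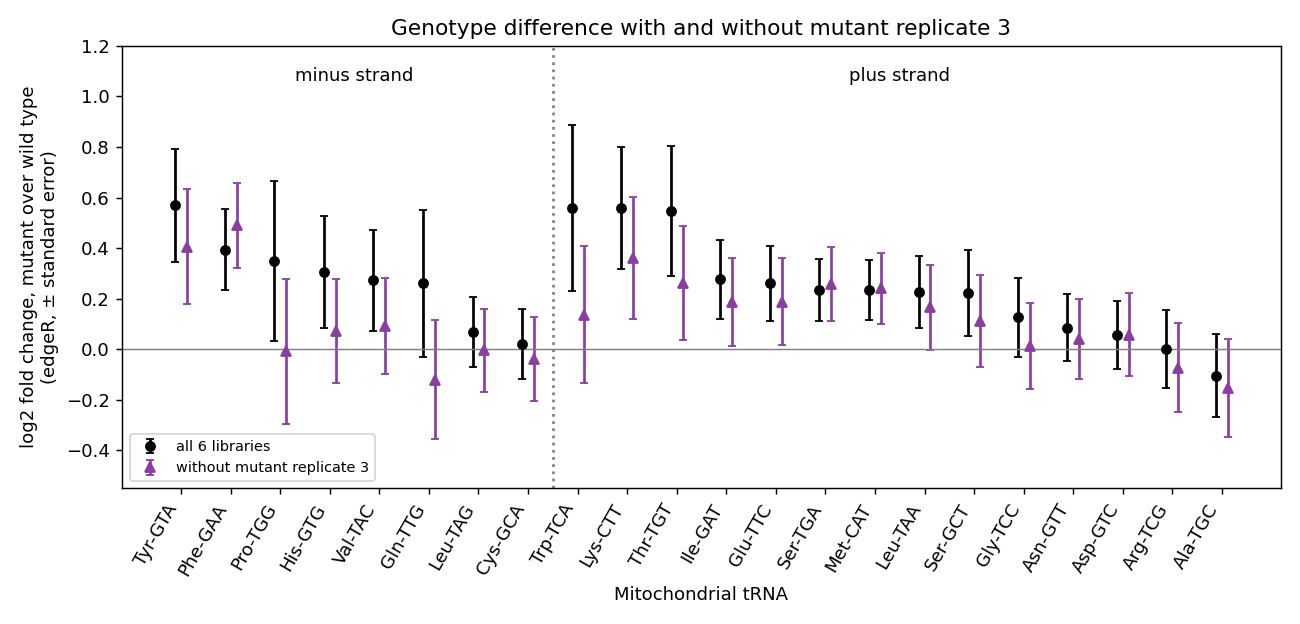
Log2 fold change of each mitochondrial tRNA, mutant over wild type, from edgeR with its standard error, with all 6 libraries (circles) and without mutant replicate 3 (triangles). The values of Gln-TTG, Pro-TGG, Leu-TAG and Cys-GCA on the minus strand were below 0 without that library, and those of Phe-GAA and Tyr-GTA were 0.49 and 0.41, against 0.39 and 0.57 with all libraries.

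Neighbours on opposite strands were also compared as count ratios within each library, which need no scaling. Pro stood at 1.13, 1.04 and 1.19 times the abutting plus-strand Thr in mutant midguts, against 1.37, 1.43 and 1.02 times in wild-type midguts. Cys stood at 7.09, 4.77 and 3.27 times the overlapping Trp in mutant midguts, against 6.44, 5.18 and 9.22 times in wild-type midguts, a range of 2.82-fold, where Trp itself spanned 3.24-fold and Cys 1.18-fold. Phe stood at 1.56, 1.56 and 1.11 times the facing plus-strand Glu in mutant midguts, against 1.13, 1.23 and 1.47 times in wild-type midguts. Gln over the plus-strand Met beside it spanned 2.17-fold over the 6 libraries, and Gln over the plus-strand Ile on its other side 1.76-fold. Phe over His, which lie on the same strand at the 2 ends of mt:ND5, spanned 1.98-fold. Ratios were also taken of members that lie far apart on the map. Val over Gln spanned 111 to 161, a 1.45-fold range over the 6 libraries. Pro over Gln spanned 1.28-fold, and Pro was also the closest profile to Gln among all transcripts tested, so these are not separate observations. Pro stood at 20.1, 19.3 and 18.9 times Gln in mutant midguts, against 16.3, 20.96 and 16.5 times in wild-type midguts. The genotypes overlapped in every ratio.

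To see which transcripts moved most like each member, log2 CPM profiles over the 6 libraries were compared by Pearson correlation with all 410 other transcripts tested, of which 21 (5.12%) were mitochondrial tRNAs. As a description, the closest profile was that of another mitochondrial tRNA for 6 of the 8 members. These were Trp for His (r = 0.987) and for Pro (r = 0.987), mt:tRNA:Ser-GCT for Val (r = 0.992), Pro for Gln (r = 0.957), mt:tRNA:Glu-TTC for Tyr (r = 0.9499) and mt:tRNA:Arg-TCG for Cys (r = 0.885). For Tyr and Cys a nuclear transcript came close behind, tRNA:Cys-GCA-1-1 (r = 0.9476) and snoRNA:Me18S-A425 (r = 0.874). The closest profile to Phe was that of a 5S ribosomal RNA copy, 5SrRNA:CR33428 (r = 0.979), a Pol III product. That to Leu was a nuclear arginine tRNA, tRNA:Arg-TCG-3-1 (r = 0.879), with snoRNA:Psi28S-2648 close behind (r = 0.873). All 5 closest profiles were mitochondrial tRNAs for Gln, His and Pro. Of the 5 closest, 4 were mitochondrial tRNAs for Val, 3 for Leu, 2 for Cys, 1 for Tyr and 0 for Phe. All profiles come from the same 6 libraries and share their scaling factors, and no test was made.

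The nuclear tRNAs for the same 8 amino acids are Pol III products that serve the cytosol. Of 33 listed, 32 were tested and 3 passed in edgeR's test, all higher in the mutant (tRNA:His-GTG-1-1, tRNA:Gln-CTG-2-1 and tRNA:Gln-CTG-3-1), beside 1.22% of all transcripts tested. Of the 32, 27 had a log2 fold change above 0, beside 44.5% of all transcripts. Their median was 0.36, beside 0.29 for the mitochondrial minus-strand tRNAs. The largest was tRNA:Gln-TTG-1-1, with 563, 1363 and 1238 CPM in mutant midguts, against 319, 550 and 435 CPM in wild-type midguts, a fitted log2 difference of 1.28 ± 0.32 (SE; edgeR adjusted p = 0.125). The smallest was tRNA:Leu-TAA-1-1, with 6.21, 8.19 and 6.39 CPM in mutant midguts, against 9.86, 7.77 and 7.51 CPM in wild-type midguts, at -0.27 (SE 0.21, edgeR adjusted p = 0.558). For glutamine the 6 nuclear tRNAs had a median of 1.11, beside 0.26 for mitochondrial Gln, and for histidine the single nuclear sequence had 1.10, beside 0.30. For tyrosine the 2 nuclear tRNAs had a median of 0.03, beside 0.57, and for phenylalanine the nuclear tRNA had 0.13, beside 0.39. For cysteine the 4 nuclear tRNAs had a median of 0.46, beside 0.02, for proline the 5 had 0.72, beside 0.35, for leucine the 8 tested had 0.11, beside 0.07, and for valine the 5 had 0.24, beside 0.27. Whether nuclear and mitochondrial tRNAs of an amino acid differ was not tested.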

How the data were processed

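Midgut RNA of 3 Polr3D mutant and 3 wild-type libraries, grouped by sample title, was analysed from 1 table. Before deposit the authors ran FastQC and Cutadapt on the reads and estimated transcript abundance with Salmon on all annotated transcripts, noncoding ones included. The deposited table holds expected counts (estimated counts), which the authors gave as whole numbers for transcripts of at most 299 bases, with no scaling to depth. Reads shared by several transcripts are split by Salmon's model. Identifiers were matched to the annotation (release BDGP6.54 of the same assembly) for all but 4 transcripts.

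Genotypes were compared with edgeR 4.0.16 under R 4.3.3, using filterByExpr (minimum count 10, minimum total 15; 411 kept, 120 removed), TMM factors and the quasi-likelihood test, two-sided, with Benjamini-Hochberg adjustment over all transcripts tested and a threshold of 0.10, the rate the study used. Standard errors were derived from the F statistic. The procedure was also run on simulated data. The changes put in went in both directions and were larger than those fitted for the members. That run therefore does not show how often differences of their size would be called. The study's own comparison used DESeq2 in a standard workflow. Alternatives here were DESeq2 (version 1.42.0), limma-voom (limma version 3.58.1), other scalings, other filters, a replicate block and leaving out each library. Profiles were compared on log2 of CPM plus 0.5. All 8 members were named whatever their values, and from each comparison list the largest and smallest log2 fold change; further names were chosen after their values were seen. Members and lists were chosen with earlier results of these data known. Sequences of these tRNAs were not analysed here.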

Additional observations from a re-analysis of the deposited data

How the results depend on the processing

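The number of transcripts called moved from 5 of 411 to 10 with RLE factors, 16 with library totals alone, 11 with upper-quartile factors, 16 with no filter, 0 of 346 with a mean of at least 100 counts, 30 of 416 with DESeq2 and 0 with limma-voom (61 transcripts at an unadjusted p below 0.05), and between 0 and 47 when each library was left out, with 0 without any one wild-type library and 47 without mutant replicate 3. The cause was not tested. Members called stayed at 0 except for 1 (Phe) with DESeq2. Of 120 alternative log2 fold changes of single members, 110 kept direction and call, 1 (Phe with DESeq2, 0.43) passed the threshold and 9 turned sign. Cys turned to -0.15 with library totals and -0.13 with scaling on plus-strand mitochondrial tRNAs, to -0.039 without mutant replicate 3 and to -0.0077 without wild-type replicate 3. Leu turned to -0.10 and -0.078 under the same scalings, and to -0.0042 without mutant replicate 3, where Gln turned to -0.12 and Pro to -0.0079. When each library was left out the log2 fold change ranged from -0.12 to 0.49 for Gln, -0.039 to 0.094 for Cys, -0.0079 to 0.60 for Pro and -0.0042 to 0.13 for Leu. The difference in the summed share ranged from -0.445 to 1.47 percentage points when each library was left out, and was -2.002 points over all tRNA counts and 2.07 points over all mitochondrial tRNA counts. A fit with a replicate block called 14 transcripts and 0 members. The titles do not say that same-numbered libraries were handled together, and the deviations of such libraries around their genotype's mean correlated at -0.16 on average, with no library correlating best with its own number. Spread between the 3 libraries of a genotype exceeded counting error for every member.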
